A study of Homo sapiens with 4 samples.

Results

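NT5E encodes CD73, the cell surface enzyme that turns AMP into adenosine, and it is described here together with 9 other genes that make, sense, carry or remove extracellular adenosine. The 10 genes were NT5E, the ectonucleotidases ENTPD1, ENTPD2 and ENTPD3, the receptors ADORA1, ADORA2A and ADORA2B, the transporter SLC29A1, and the adenosine-removing enzymes ADK and ADA. Each was found by its symbol in 1 row of a table of 63677 genes. NT5E was chosen from its rise in these same libraries, so its values are a description with no test, while the other 9 belong to the set by function. The data were RNA-seq libraries of MDA-MB-231, an established human cell line from a triple-negative breast cancer, and the study's methods name the MDA-MB-231-Luc derivative of it. Cells received a control siRNA (siCt, 2 libraries) or an ON-TARGET pool of siRNAs against AXL, a receptor tyrosine kinase (siAXL, 2 libraries), both with Lipofectamine. The study used these libraries to derive a gene signature of AXL depletion, with which it searched for drugs that could be repurposed. Nothing in the labels says that replicates were separate cultures, so p-values measure only the spread between these libraries, which may be technical. No library of a single siRNA or of a rescue was analysed here.

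Cells release ATP, and enzymes anchored in the plasma membrane take it apart outside the cell. CD39-type enzymes, the ENTPD family, strip ATP and ADP to AMP, and CD73 then removes the last phosphate to leave adenosine. Adenosine binds G protein-coupled receptors that lower or raise cyclic AMP, and it is cleared by equilibrative transport into the cell, where adenosine kinase returns it to AMP and adenosine deaminase converts it to inosine. In tumors the CD73 step is best known for supplying adenosine that restrains immune cells.

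The libraries held 39574387 to 44585773 reads assigned to genes, and values are normalized counts, which are reads divided by a size factor for each library. AXL was 29189 and 30617 in siCt 1 and siCt 2 and 8658 and 7141 in siAXL 1 and siAXL 2, and fell by 1.93 on the log2 scale (standard error, SE, 0.0918, limma adjusted p = 0.000585). Markers of the line were present, with VIM at 86751 to 99296 and CD44 at 33968 to 36518, whereas the hormone receptors ESR1 and PGR stayed at or under 3.25 and 1.94. The endothelial marker PECAM1 had 0 reads in all 4 libraries, and the blood cell marker PTPRC was at 7.77 to 16.7. EGFR, another marker of the line, was at 7355 and 7136 in siCt and 12921 and 15003 in siAXL (log2 fold change 0.94, limma adjusted p = 0.00166). ERBB2 at 2949 to 3680 and EPCAM at 565 to 771 were present, and ERBB2 was higher in siAXL (0.26, limma adjusted p = 0.0258). CDH1 was at 90.1 and 94.3 in siCt and 36.9 and 22.6 in siAXL (-1.64, limma adjusted p = 0.00847). In 16064 genes tested, 3006 passed an adjusted p of 0.05, which is 18.7% of them. Of all tested genes 10.8% were higher and 7.91% were lower in siAXL, and in 61.2% the 2 groups did not overlap.

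Sequence before the RefSeq start is shown for NT5E and for ENTPD3, the ectonucleotidase of the set that passed the test, so that these letters stand beside their values. Each run is the 250 bases before the RefSeq start on the plus strand of GRCh38.p14, at chr6:85449833-85450082 for NT5E and at chr3:40386934-40387183 for ENTPD3. Capitals mark matches to TGACGT, the core of a cyclic AMP response element, and to GGGCGG, a GC box, on either strand.

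NT5E: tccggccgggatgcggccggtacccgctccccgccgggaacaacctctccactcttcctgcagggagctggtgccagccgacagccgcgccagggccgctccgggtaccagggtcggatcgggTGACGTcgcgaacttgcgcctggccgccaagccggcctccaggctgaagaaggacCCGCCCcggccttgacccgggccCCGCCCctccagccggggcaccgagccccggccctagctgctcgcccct

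ENTPD3: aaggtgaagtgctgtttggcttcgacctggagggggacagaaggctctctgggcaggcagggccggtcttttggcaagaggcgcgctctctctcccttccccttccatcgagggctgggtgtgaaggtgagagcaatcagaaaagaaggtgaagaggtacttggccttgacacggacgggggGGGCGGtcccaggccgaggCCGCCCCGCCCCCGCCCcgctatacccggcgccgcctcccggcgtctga

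The NT5E run holds TGACGT once, from 127 to 122 bases before the RefSeq start, and the reverse complement of GGGCGG at -72 to -67 and at -49 to -44. ENTPD3 holds GGGCGG at -68 to -63 and its reverse complement at -49 to -44, -44 to -39 and -38 to -33, the first pair of which shares 1 base. Over 35116 RefSeq promoter windows of 300 bases, 7.98% held TGACGT, 45.0% held GGGCGG and 21.4% held ACGTG, the core of a hypoxia response element, on either strand. An entry was found for 9 of the genes, with 15 windows in all, of which 1 held TGACGT, 10 held GGGCGG and 1 held ACGTG. These matches describe the letters only.

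NT5E was the member with the largest difference and, per kilobase of all annotated exons, the highest level in both groups. With the longest transcript as the length, SLC29A1 stood above it in siCt. NT5E (ENSG00000135318) lies on the plus strand of chromosome 6, at 85449584 to 85495791 in GRCh38, and no other annotated gene overlaps it. The siCt libraries held 15634 (siCt 1) and 14095 (siCt 2), and the siAXL libraries 35043 (siAXL 1) and 36343 (siAXL 2). Both siAXL libraries lay far above both siCt libraries, and each pair was close together. The mean went from 14865 ± 1088 (SD, n = 2) to 35693 ± 919 (SD, n = 2), a ratio of 2.40, with a log2 fold change of 1.27 (SE 0.0676). Among the 16064 tested genes this log2 fold change ranked 60 from the top. These numbers come from the contrast that picked NT5E, so they describe it and support nothing further.

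NT5E also moved up among the abundant transcripts. NT5E had 16304 and 13009 reads in siCt 1 and siCt 2 and 36081 and 36986 in siAXL 1 and siAXL 2, which were 0.0368%, 0.0329%, 0.0809% and 0.0830% of all reads. By normalized count it ranked 387 and 481 in the siCt libraries and 96 and 98 in the siAXL libraries. Per kilobase of exon it ranked 417 and 505, and then 121 and 122, among the 15649 tested genes with a length. In bulk RNA, a greater number of CD73-positive cells and more NT5E transcript per cell cannot be told apart.

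**Figure D1:**
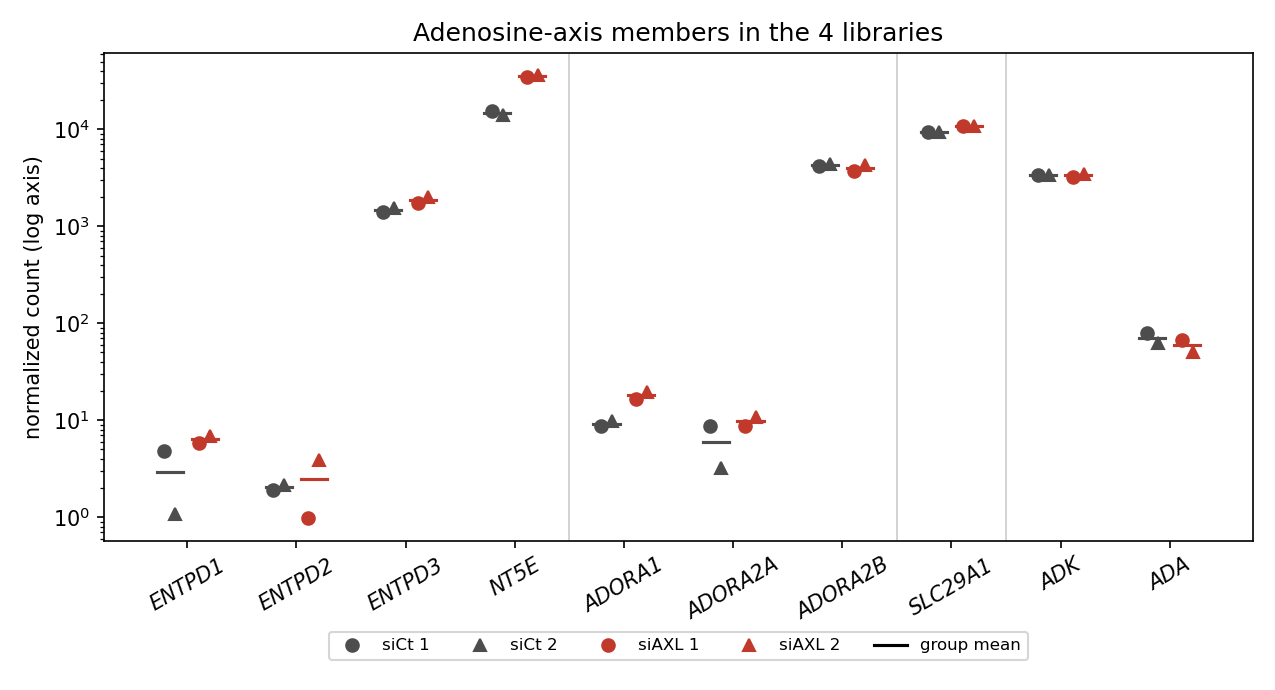
Normalized counts of the 10 genes in each of the 4 libraries on a log10 axis, with siCt in grey, siAXL in red, a horizontal mark at each group mean, and vertical lines between the ectonucleotidases, the receptors, the transporter and the intracellular enzymes. NT5E sits at 14095 to 15634 in siCt and 35043 to 36343 in siAXL, while ENTPD1, ENTPD2 and ADORA2A stay at 10.8 or less in every library.

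Of the 3 ENTPD genes in the set, ENTPD3 carried nearly all of the reads and rose in siAXL. ENTPD3 (ENSG00000168032; chromosome 3, 40387156 to 40428744, plus strand), a membrane ATP and ADP diphosphohydrolase, stood at 1405 and 1539 with the control siRNA and at 1762 (siAXL 1) and 1999 (siAXL 2) with the AXL pool. The groups did not overlap, and the mean went from 1472 ± 94.6 to 1880 ± 167 (SD, n = 2 each), an increase of 27.8%. The log2 fold change was 0.35 (SE 0.0843, 95% interval 0.15 to 0.55), with a limma adjusted p of 0.0303. Without siAXL 2 the value was 0.26 and the adjusted p 0.138, and testing every gene with at least 1 read gave an adjusted p of 0.100. ENTPD3 shares 128 exon bases with its antisense neighbor ENTPD3-AS1, whose mean normalized count was 114, and the strand setting of the read counting is not given in the sources used here.

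ENTPD1, which encodes CD39 itself, was close to undetected. It had 5, 1, 6 and 7 reads in siCt 1, siCt 2, siAXL 1 and siAXL 2, with CPM (reads scaled to a common library total) of 0.113, 0.0253, 0.135 and 0.157. The exact Clopper-Pearson 95% intervals of the lowest and the highest, 0.000640 to 0.141 and 0.0632 to 0.324, overlap, so no difference was detectable at this depth (such intervals cover counting error only). ENTPD1 (ENSG00000138185; chromosome 10, 95711779 to 95869695) also shares 454 exon bases with ENTPD1-AS1 on the opposite strand, whose mean was 214. ENTPD2 (ENSG00000054179; chromosome 9, 137048098 to 137054045), an ectonucleotidase that prefers ATP, had 2, 2, 1 and 4 reads. Neither gene reached the minimum for testing, a CPM of 0.225 in at least 2 libraries, and their changes are not given.

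Among the adenosine receptors, ADORA2B was the only one counted above a trace level, and its groups overlapped. ADORA2B (ENSG00000170425; chromosome 17, 15944917 to 15975746), the low-affinity receptor that raises cyclic AMP, was at 4177 and 4433 in siCt 1 and siCt 2 and at 3718 and 4279 in siAXL 1 and siAXL 2. The means were 4305 ± 181 and 3999 ± 397 (SD, n = 2 each), with a log2 fold change of -0.11 (SE 0.0785, 95% interval -0.29 to 0.076, limma adjusted p = 0.378). The interval leaves room for a fall of 0.29 or a rise of 0.076. With the replicate number as a block the same value had a limma adjusted p of 0.0231. That fit called 7310 of the 16064 tested genes. Over the 4 libraries left out in turn the value ranged from -0.21 to -0.0079.

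ADORA1, the receptor that lowers cyclic AMP, was counted in few reads. There were 9 in each siCt library, 17 in siAXL 1 and 20 in siAXL 2. As normalized counts these were 8.63, 9.75, 16.5 and 19.7, so the groups did not overlap. The log2 fold change was 0.90 (SE 0.326, 95% interval 0.13 to 1.67), and the limma adjusted p was 0.0980, so it was not called. ADORA1 (ENSG00000163485; chromosome 1, 203090654 to 203167405) passed the filter on low values through its siAXL libraries, at a CPM of 0.381 and 0.449, whereas siCt 1 at 0.203 lay under the minimum and siCt 2 at 0.227 just over it. A gene that passes mainly through its siAXL libraries tends to lean toward siAXL, although with siCt 2 over the minimum this was not forced.

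ADORA2A (ENSG00000128271; chromosome 22, 24417879 to 24442360), the high-affinity receptor that raises cyclic AMP and is known from immune cells, had 9 and 3 reads in siCt 1 and siCt 2 and 9 and 11 in siAXL 1 and siAXL 2. It was not tested. It shares 2380 exon bases with the readthrough gene SPECC1L-ADORA2A on the same strand, whose mean normalized count was 2.01. Reads in the shared bases could have been split between them or left uncounted, so the level of ADORA2A may be understated. Across all 3 ectonucleotidase and receptor genes that were too low to test, no library held more than 11 reads.

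SLC29A1, the equilibrative transporter ENT1 that moves adenosine across the plasma membrane, was modestly higher in siAXL. It was at 9402 and 9376 in siCt 1 and siCt 2 and at 10840 and 10976 in siAXL 1 and siAXL 2. The means of 9389 ± 18.6 and 10908 ± 96.1 (SD, n = 2 each) differed by 16.2%. The log2 fold change was 0.22 (SE 0.0511, 95% interval 0.096 to 0.34, limma adjusted p = 0.0290). The call was lost when any single library was left out, with adjusted p of 0.0681 without siCt 1, 0.0984 without siCt 2, 0.126 without siAXL 1 and 0.142 without siAXL 2, at values of 0.21 to 0.23. It was also lost when every gene with at least 1 read was tested (adjusted p = 0.0689). SLC29A1 (ENSG00000112759) lies at 44219505 to 44234151 on chromosome 6, on a different arm from NT5E.

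The enzymes that remove adenosine inside the cell showed no called change. ADK (ENSG00000156110; chromosome 10, 74151185 to 74709303), adenosine kinase, was at 3368 and 3377 in siCt 1 and siCt 2 and at 3259 and 3445 in siAXL 1 and siAXL 2, with one siAXL library under and one over the siCt pair. Its log2 fold change was -0.0092 (SE 0.0575, 95% interval -0.14 to 0.13, limma adjusted p = 0.928), and its sign turned with edgeR under TMM scaling and without siAXL 1. ADA (ENSG00000196839; chromosome 20, 44619522 to 44652233), adenosine deaminase, was at 78.6, 62.8, 68.0 and 51.1 in the same order, from 82, 58, 70 and 52 reads. The groups overlapped, and the log2 fold change of -0.25 had a 95% interval of -0.77 to 0.27 (SE 0.220, limma adjusted p = 0.476). The value of ADA was -0.45 without siAXL 1, -0.41 without siCt 2, -0.091 without siCt 1 and -0.048 without siAXL 2. ADA shares 46 exon bases with PKIG on the opposite strand, which had a mean of 1345.

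**Figure D2:**
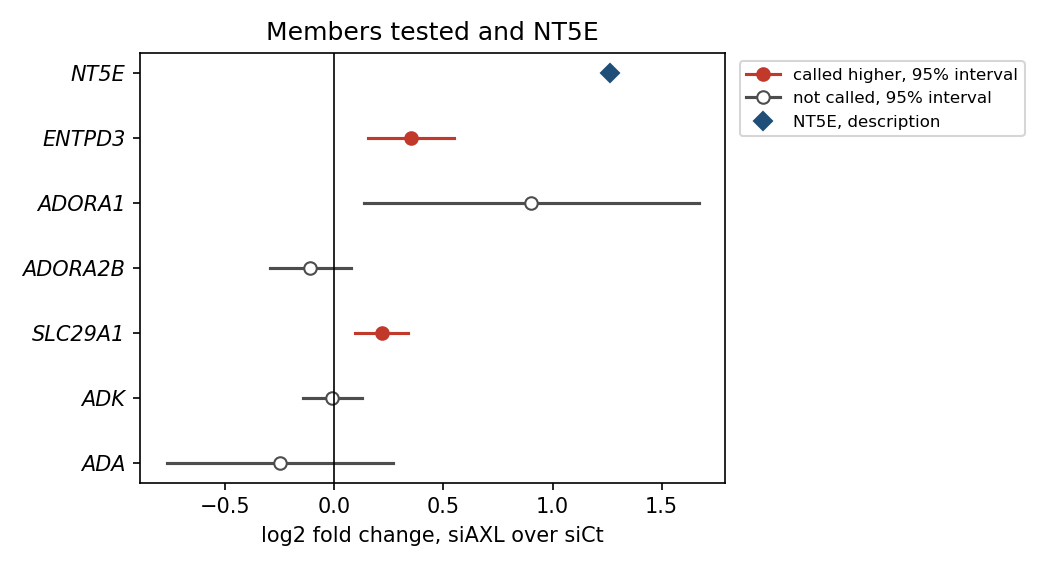
Log2 fold change of siAXL over siCt for the 7 genes that passed the filter on low values, with limma 95% intervals as bars, filled points for called genes, and a diamond without interval for NT5E, which was chosen on this contrast. ENTPD3 (0.15 to 0.55) and SLC29A1 (0.096 to 0.34) were called, the interval of ADORA1 (0.13 to 1.67) lies above 0 although its adjusted p was 0.0980, and those of ADORA2B, ADK and ADA span 0.

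Set against all genes, the members besides NT5E gave a small count. Of the 9, 6 were tested and 3 were not, and of the 6 tested 2 were called, both higher and none lower with limma, edgeR or DESeq2. The background for a higher call was 10.8% of all tested genes. Groups did not overlap in 3 of the 6 (ENTPD3, ADORA1 and SLC29A1), against 61.2% of all tested genes. The median log2 fold change of the 6 was 0.10, beside -0.0022 over all tested genes. Both the median and the count of 3 include ADORA1 (0.90), which passed the filter mainly through its siAXL libraries. The others were ENTPD3 (0.35), SLC29A1 (0.22), ADK (-0.0092), ADORA2B (-0.11) and ADA (-0.25). Since only the members that passed the filter are in these numbers, they describe those 6 and not the set, and the median carries no support for a shift.

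Levels can be compared between genes only per length, here as normalized count per kilobase of exon in GENCODE 29. In siCt the order was NT5E (3279), SLC29A1 (2130), ADORA2B (1687), ADK (1059), ENTPD3 (407), ADA (24.8), ADORA1 (2.19), ADORA2A (1.42), ENTPD2 (0.776) and ENTPD1 (0.421). In siAXL the order was the same, from 7874 for NT5E, 2475 for SLC29A1 and 1567 for ADORA2B down to 1053 for ADK, 520 for ENTPD3, 20.9 for ADA and 4.31 for ADORA1. The first 6 places were separated by more than the SDs of their neighbors. ENTPD1 and ENTPD2 differed by less than their SD in both groups, and so did ADORA1 and ADORA2A in siCt. With the longest transcript as the length, SLC29A1 at 4036 stood above NT5E at 3794 in siCt, and NT5E at 9110 stood above SLC29A1 at 4690 in siAXL.

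Ratios of NT5E transcript to the other transcripts followed from these levels, while protein and enzyme activity were not measured in these libraries. Per kilobase, NT5E was 8.87 and 7.30 times ENTPD3 in siCt 1 and siCt 2 and 15.9 and 14.5 times in siAXL 1 and siAXL 2. Against SLC29A1 it stood at 1.62 and 1.46 times in siCt and 3.14 and 3.22 times in siAXL, and against ADORA2B at 2.11 and 1.79 times and then 5.30 and 4.78 times. Over ADK the ratio was 3.26 and 2.93 in siCt and 7.55 and 7.41 in siAXL. All these ratios carry the choice of NT5E in their numerator and are given without a test. They also rest on the length used: with the longest transcript, NT5E at 3794 lay under SLC29A1 at 4036 in siCt. ADK stood above ADA in every library, at 38.4, 48.1, 42.9 and 60.4 times, so transcript for the kinase outweighed transcript for the deaminase with either siRNA.

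**Figure D3:**
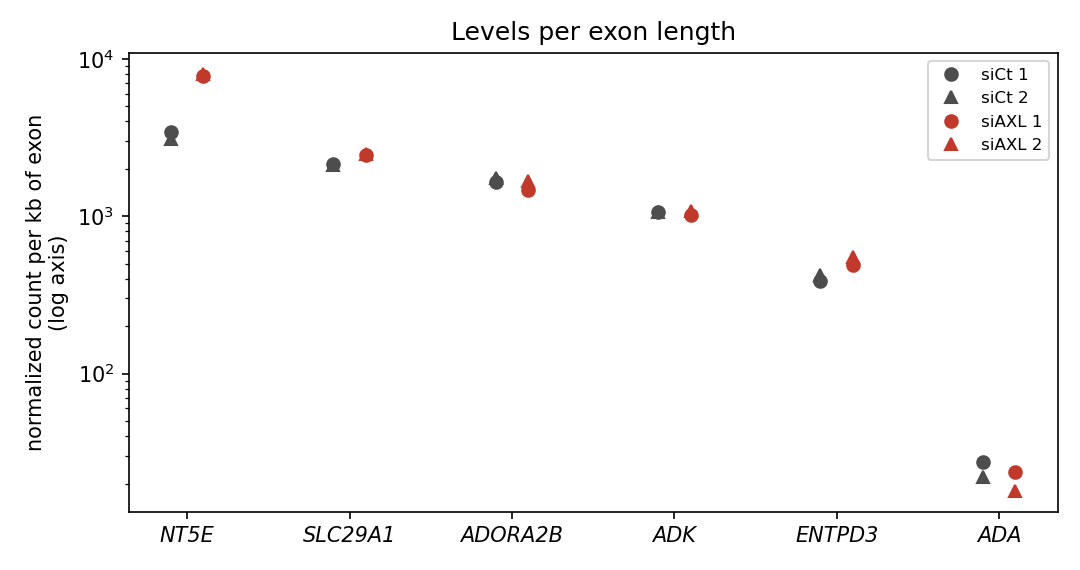
Normalized count per kilobase of exon on a log10 axis for the 6 genes with the highest levels, with a point for each library of siCt (grey) and siAXL (red). NT5E, SLC29A1, ADORA2B and ADK have group means of 1053 or more, ENTPD3 follows at 407 and 520, and ADA lies lowest at 24.8 and 20.9.

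The wider pathway was followed through 103 further genes in 8 roles, written from general knowledge of extracellular nucleotide and adenosine metabolism. The lists were written with earlier results of these data known, so the shares of each role are a description. All 103 were in the table and 72 were tested. Of these 17 were higher (23.6%, with 10.8% of all tested genes) and 5 lower (6.94%, with 7.91% of all tested genes), and 50 were not called, with a median log2 fold change of 0.078. The 31 untested genes had at most 35 reads over the 4 libraries, and 8 had 0. Where several genes carried 1 list symbol, the one with the highest mean was kept, which touched 3 symbols.

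Nucleotide release was the role with the largest share of higher genes. Of its 10 genes 8 were tested, 5 were higher (62.5%, beside 10.8% of all tested genes) and none had a log2 fold change below 0, with a median of 0.42. ANKH, a membrane protein involved in ATP and pyrophosphate export, was at 1312 and 1177 in siCt and 1834 and 1963 in siAXL, and rose by 0.61 (SE 0.0780, limma adjusted p = 0.00428). GJA1, the gap junction protein connexin 43, was at 268, 238, 365 and 350 in siCt 1, siCt 2, siAXL 1 and siAXL 2, with a log2 fold change of 0.50 (SE 0.109, limma adjusted p = 0.0228). PANX2, of the pannexin channel family, was at 98.8, 42.3, 161 and 174 in that order, with siCt 2 well under siCt 1. Its log2 fold change of 1.36 (SE 0.352, limma adjusted p = 0.0380) was 1.96 without siCt 1 and 0.76 without siCt 2, and the call was lost without siAXL 1 (adjusted p = 0.0554) or siAXL 2 (adjusted p = 0.0701), and under upper-quartile or library-total scaling. GJA1 lost its call without siAXL 1 (adjusted p = 0.104) or siAXL 2 (adjusted p = 0.0657). The other 2 higher genes, LRRC8A and CALHM2, were named after their values were seen. SLC17A9, the vesicular nucleotide transporter, had the highest count among those not called, at 3628 to 4506, with a log2 fold change of 0.071 (limma adjusted p = 0.688).

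Of 11 other ectonucleotidases 6 were tested, with 1 higher, 1 lower and 4 not called, a count near the 10.8% higher and 7.91% lower of all tested genes. ENPP1, which cleaves ATP to AMP and pyrophosphate, was at 7574 and 6222 in siCt and 10583 and 9570 in siAXL, and rose by 0.55 (SE 0.0987, limma adjusted p = 0.0122). Per kilobase of exon ENPP1 was at 693 in siCt and 1012 in siAXL, beside 407 and 520 for ENTPD3. ALPP, placental alkaline phosphatase, was at 80.5 and 93.2 in siCt and 46.6 and 43.2 in siAXL, with a log2 fold change of -0.93 (SE 0.185, limma adjusted p = 0.0169), a call lost without siAXL 2 (adjusted p = 0.0584). BST1 stood at 80.5 to 82.6 and was not called (0.020, limma adjusted p = 0.944). Among the 4 ENTPD enzymes of internal membranes, all tested, ENTPD6 was at 4025 and 3867 in siCt and 4694 and 4473 in siAXL, with a log2 fold change of 0.22 (SE 0.0576, limma adjusted p = 0.0418). The ENTPD6 call was lost without siCt 2 (adjusted p = 0.148), siAXL 1 (0.232) or siAXL 2 (0.0948), and under upper-quartile (0.0581) or library-total (0.0635) scaling. ENTPD4, with the highest count of the others, was not called (0.018, limma adjusted p = 0.950).

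Of 20 intracellular AMP and adenosine enzymes 17 were tested, and 12 were not called. The 2 higher (11.8%) and 3 lower (17.6%) stand beside 10.8% and 7.91% of all tested genes, and the median log2 fold change was -0.11. AK4, an adenylate kinase of mitochondria, was at 7057 and 7392 in siCt and 9131 and 9953 in siAXL (log2 fold change 0.40, SE 0.0632, limma adjusted p = 0.00827). AK5, another adenylate kinase, was at 351 and 323 in siCt and 200.1 and 192 in siAXL, with a log2 fold change of -0.78 (SE 0.110, limma adjusted p = 0.00565). Both kept their calls under every alternative. AMPD3, an AMP deaminase, had a log2 fold change of 0.38 (SE 0.0884, limma adjusted p = 0.0267), of 0.25 without siCt 2, and lost its call without siAXL 1 (adjusted p = 0.0570) or siAXL 2 (adjusted p = 0.0638). AHCY, the hydrolase that frees adenosine from S-adenosylhomocysteine, had a log2 fold change of -0.28 (SE 0.0644, limma adjusted p = 0.0281), not called without siAXL 1 (adjusted p = 0.164). ADAL, a deaminase-like protein, had a log2 fold change of -0.35 (SE 0.0961, limma adjusted p = 0.0462), a call lost with any 1 library left out (adjusted p of 0.0520 to 0.179), with TMM scaling in limma (0.0513) or edgeR (0.0523), and with DESeq2 (0.130). AHCYL1 had the highest count of those not called (-0.13, limma adjusted p = 0.182).

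Of a secreted adenosine deaminase and the surface anchor of adenosine deaminase, only the anchor was tested, and it was not called. DPP4, which anchors adenosine deaminase at the cell surface, was at 78.6 and 99.7 in siCt and 107 and 137 in siAXL (log2 fold change 0.44, SE 0.194, limma adjusted p = 0.157), and the groups did not overlap. With the replicate block the adjusted p of DPP4 was 0.0129, and its value was 0.27 without siCt 1 and also without siAXL 2. CECR1, the secreted deaminase, had 6 reads in all and was not tested. In nucleoside transport 3 of 6 genes were tested, and limma, edgeR and DESeq2 each called 0, with 1 at an unadjusted p under 0.05 in each. SLC29A2 (ENT2) had a log2 fold change of 0.15 (limma adjusted p = 0.506), which was 0.32 and called higher without siCt 1 (adjusted p = 0.0152) and -0.011 and -0.028 without siCt 2 and siAXL 1. The replicate block, which called 7310 of all 16064 tested genes, gave the same 0.15 a limma adjusted p of 0.0114. In this list 2 of the 3 genes were called without siCt 1 (SLC29A2 higher, and SLC29A3, named after its value was seen, lower), and all 3 with the replicate block.

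Receptors for the nucleotides upstream of CD73 were mostly too low to test, as 7 of 16 were tested. P2RX4, an ATP-gated channel, was at 240 and 187 in siCt and 370.0 and 362 in siAXL, and rose by 0.78 (SE 0.138, limma adjusted p = 0.0116). P2RX5, another ATP-gated channel, was at 202 and 181 in siCt and 268 and 253 in siAXL (log2 fold change 0.44, SE 0.119, limma adjusted p = 0.0430), and lost its call without siCt 2 (adjusted p = 0.137), siAXL 1 (0.196) or siAXL 2 (0.110), under upper-quartile and library-total scaling (0.0564 in both) and with DESeq2 (0.122). P2RY2, with the highest count in this list, was not called (0.12, limma adjusted p = 0.354). ADORA3, the remaining adenosine receptor, had 3 reads in all and was not tested.

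The G protein and cyclic AMP arm below the adenosine receptors held 34 genes, of which 26 were tested, with a median of 0.079. Of these 6 were higher (23.1%, beside 10.8% of all tested genes) and 1 lower (3.85%, beside 7.91%). PRKAR1B, a regulatory subunit of protein kinase A, was at 623 and 592 in siCt and 767 and 781 in siAXL (log2 fold change 0.35, SE 0.0777, limma adjusted p = 0.0242). ADCY9, an adenylyl cyclase, was at 1673 and 1766 in siCt and 2023 and 2232 in siAXL (0.31, SE 0.0722, limma adjusted p = 0.0290). PDE4A, a phosphodiesterase that breaks down cyclic AMP, was at 2357 and 2371 in siCt and 2946 and 2873 in siAXL (0.30, SE 0.0560, limma adjusted p = 0.0141). So a cyclase and a phosphodiesterase were both higher. PRKAR2B, another regulatory subunit, was lower, at 259 and 260.0 in siCt and 178 and 158 in siAXL (-0.63, SE 0.120, limma adjusted p = 0.0151), and PRKAR1A, with the highest count of those not called, was at 14590 to 15304 (0.022, limma adjusted p = 0.823). Calls were lost without siAXL 2 for ADCY9 (adjusted p = 0.151) and PRKAR2B (adjusted p = 0.0673), and without either siAXL library for PRKAR1B (0.0945 and 0.108, with 0.0569 without siCt 2) and PDE4A (0.0821 and 0.0525).

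The pathway count depended on the libraries, the filter and the scaling. The count of higher genes rose without siCt 1 and fell without siCt 2, siAXL 1 or siAXL 2. The count of higher genes over all tested genes did the same. When every gene with at least 1 read was tested, 4 genes stayed higher (ANKH, LRRC8A, AK4 and PDE4A) and 1 lower (AK5). Over all 27108 genes tested in that setting 757 were higher and 340 lower, beside 1735 and 1271 of 16064 in the main setting. Upper-quartile and library-total scaling each gave 13 higher and 7 lower. Over all tested genes these scalings gave 1611 higher and 1617 lower, and 1536 higher and 1745 lower. In each of these settings the higher calls over all tested genes moved in the same direction as those of the pathway.

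**Figure D4:**
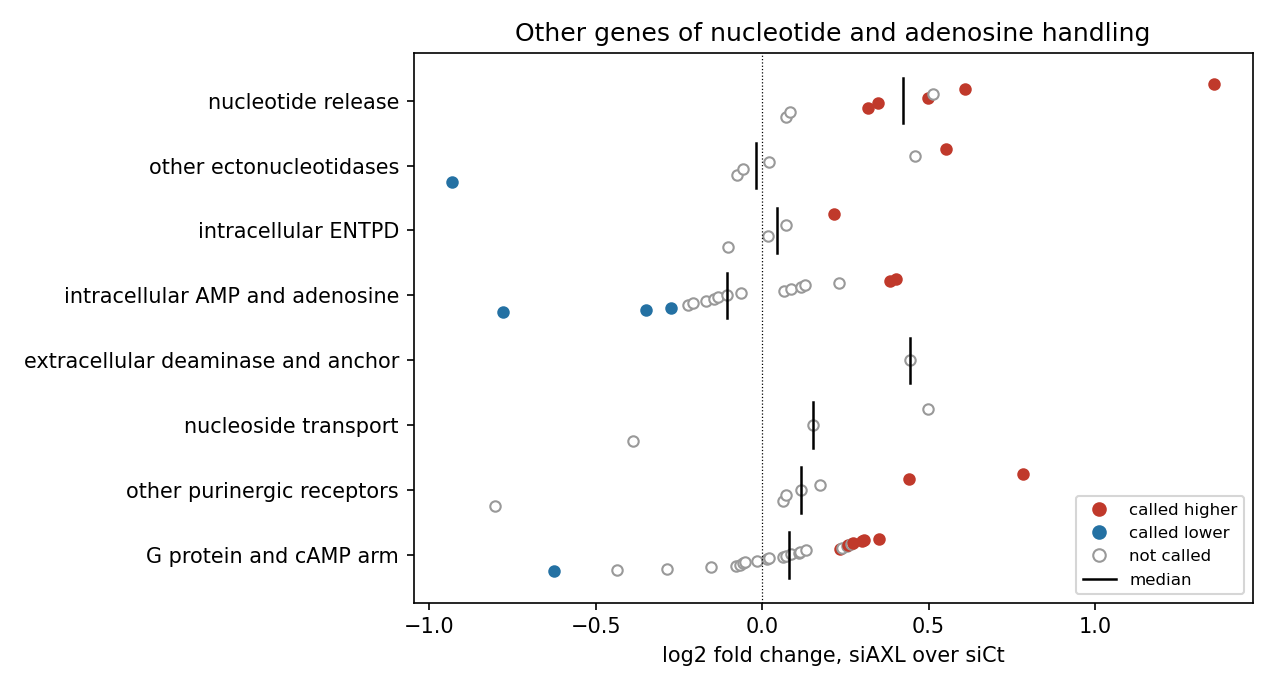
Log2 fold change of siAXL over siCt for the 72 tested pathway genes, grouped by role, with called and uncalled genes in different colors and a black line at the median of each role. Nucleotide release has the highest median among roles with more than 3 tested genes, 0.42, and PANX2 at 1.36 and ALPP at -0.93 are the extremes.

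The genes whose pattern over the 4 libraries was nearest to that of NT5E were found by Euclidean distance between centered log2 profiles, among 12087 tested genes with a mean normalized count of at least 100. FAM8A1, at a distance of 0.0208, was at 1018 and 916 in siCt and 2286 and 2329 in siAXL. STRADB, at 0.0744, was at 773 and 663 in siCt and 1716 and 1837 in siAXL. Next came ZNF25 (0.102), TMEM45A (0.113) and APLP2 (0.126), and all 5 resemble NT5E in a lower siCt 2 and in log2 fold changes of 1.15 to 1.37. With 4 libraries in 2 groups, such likeness mostly restates the size of the difference between groups.

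**Figure D5:**
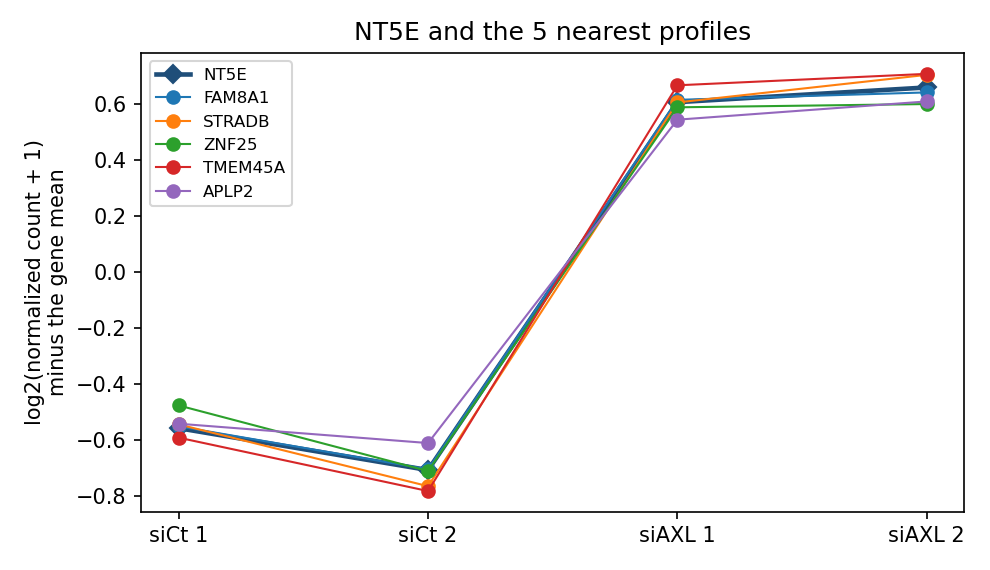
Log2(normalized count + 1) of NT5E and its 5 nearest genes in the 4 libraries, each centered on its own mean. All 6 profiles are lowest in siCt 2 and highest in the 2 siAXL libraries, and the lines join libraries only to guide the eye.

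The 3′ UTR of NT5E was checked for CACATCA, a 7-base word that earlier results of these data had linked to higher values in siAXL. The medians given next come from the same libraries, so they restate that result and do not test it. Among tested coding genes the 1492 carriers had a median log2 fold change of 0.11 and the 11418 others -0.010, and carriers had longer 3′ UTRs (median 3187 against 1188 bases). NT5E held 0 copies in 1787 bases of its longest annotated 3′ UTR. Of the other members ENTPD1 alone held a copy, and of the 5 nearest genes TMEM45A held 2 and APLP2 held 1.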

How the data were processed

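Total RNA was extracted with RNeasy columns and sequenced on an Illumina HiSeq instrument by the authors. The submitters' processing notes name CASAVA 1.8, TopHat2 2.0.10, HTSeq 0.5.3, DESeq2 1.4.5 and GRCh37. Annotation and strand setting are not given in the sources used here. The authors deposited a signal, the count of reads per gene divided by the size factor of the library. The authors' fold changes and p-values in the same table were not used. Values were whole multiples of 1 read for 100% of positive values in each library (tolerance 0.01), so reads were recovered, and per-sample columns not used numbered 0. Totals were 44281982 and 39574387 (siCt 1, siCt 2) and 44585773 and 44559547 (siAXL 1, siAXL 2).

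Genes passing edgeR's filterByExpr (a CPM of 0.225 in 2 libraries, at least 15 reads in all) were tested with limma 3.58.1 in R 4.3.3, (trend with intensity) on log2(normalized count + 1), and fold changes are on that scale, which understates low genes. Of 63677 genes 27108 had reads, 16064 were tested and 47613 were not. Benjamini-Hochberg adjustment ran over all tested genes. Alternatives were other scalings, filters and pseudocounts, a replicate block, each library left out, and count tests on the recovered reads: edgeR 4.0.16 called 3122 genes with TMM and 3020 with DESeq2 size factors, and DESeq2 1.42.0 called 2598 of 12949 with an adjusted p, beside 3006 with limma. The fit was tested on simulated data.

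GENCODE 29 (GRCh38) gave gene positions, exon lengths, overlaps and 3′ UTRs by Ensembl identifier for 82.5% of the genes in the table (all 10 members), and RefSeq (GRCh38.p14) gave promoters, with no coordinates taken from or converted to GRCh37. Samples were grouped by their labels. The members, the pathway lists, the motifs and CACATCA were chosen with earlier results of these data known. Named genes are the 10 members, AXL, and in each pathway role the called genes with the largest log2 fold changes (at most 3 in each direction) and the uncalled gene with the highest count, plus the 5 genes nearest to NT5E. RNA-seq of drug-treated cells was not analysed here.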

Additional observations from a re-analysis of the deposited data

How the results depend on the processing

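The difference of NT5E, a description, lay at 1.24 to 1.27 under the other scalings and at 1.19 to 1.34 with a library left out. Limma called 2 members besides NT5E, as did edgeR with the same filter and DESeq2 with its own. In limma the count was 0 when every gene with at least 1 read was tested (3 at an unadjusted limma p under 0.05). With that wider filter ENTPD3 (0.35, adjusted p = 0.100) and SLC29A1 (0.22, adjusted p = 0.0689) were not called, and pathway counts went from 17 higher and 5 lower to 4 and 1. Over all tested genes the counts went from 1735 higher and 1271 lower to 757 and 340. Leaving out a library gave 4 to 20 higher and 2 to 5 lower, 0.26 to 0.44 for ENTPD3, 0.21 to 0.23 for SLC29A1, and -0.049 to 0.031 for ADK, which was 0.00020 in edgeR with TMM. Fits with a library left out lean on a spread pooled across genes, and the lone library of a group is assumed to vary like the other group. The replicate numbers are shared by the labels alone: with 2 pairs, same-numbered libraries deviated together with a correlation of 0.27 over 16064 genes. With the replicate block 7310 of 16064 genes were called (3737 higher and 3573 lower), and 27 pathway genes were higher and 11 lower. With that block ADORA2B (-0.11, limma adjusted p = 0.0231) joined ENTPD3 and SLC29A1. AHCYL1 also passed with it (adjusted p = 0.00152).

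Uncalled genes near 0 changed sign: BST1 (-0.0088), ENTPD4 (-0.011) and PRKAR1A (-0.0077) with library-total scaling, ENTPD4 (-9.3e-05) with upper-quartile scaling, and with a library left out SLC17A9 (-0.074 to 0.22), ENTPD4 (-0.22 to 0.25), SLC29A2 (-0.028 to 0.34) and PRKAR1A (-0.0036 to 0.047). The cause of these changes was not tested. Higher genes made up 57.7% of all calls, but 49.9% with upper-quartile and 46.8% with library-total scaling, and 1097 genes were called with the wider filter. With the longest transcript as length, levels per kilobase were 554 for ENTPD3, 2214 for ADORA2B, 4363 for SLC29A1, 1513 for ADK and 36.8 for ADA, from 464, 1627, 2302, 1056 and 22.8. Depth limits ENTPD1, ENTPD2, ADORA1 and ADORA2A, each with under 21 reads in any library, and 2 libraries a group limit every spread.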
